A study of Mus musculus with 66 samples.

Results

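Ppt1 and Ctsz encode 2 soluble enzymes of the lysosome, and their transcripts were followed here in the cerebellum of mice from weaning to old age and on 2 diets. The filter carried 3 probes with exactly one of these symbols, so they are 2 of the 3905 genes with a probe of a single symbol. Ppt1 was read by probes 4300 and 7842, and Ctsz by probe 1193, numbered as in the deposited table. The 2 genes were chosen from earlier age and diet results of these same arrays. Their age and diet differences are therefore given as a description, with an interval and without a test, and for these 2 genes only the comparison of the sexes, which did not enter the choice, is tested. Other genes of the pathway are given with the adjusted p of the fit over the whole filter.

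The lysosome degrades proteins, lipids and sugars that reach it by endocytosis and autophagy, with hydrolases that work at acid pH. Ppt1, palmitoyl-protein thioesterase, removes palmitate from cysteines of proteins that are being broken down. Loss of the human enzyme causes the infantile form of neuronal ceroid lipofuscinosis, in which storage material builds up in neurons and the cerebellum and cortex degenerate. Ctsz, cathepsin Z (also called cathepsin X), is a cysteine protease that trims single residues from the carboxyl end of proteins, and in the brain it is known above all from microglia. Many lysosomal genes are regulated by the transcription factor TFEB, which binds a palindromic site called the CLEAR element.

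The study asked how age, gender and diet shape the transcriptome of regions of the nervous system, and the cerebellum was hybridised to a nylon cDNA filter with radiolabelled cDNA, 1 filter for each of 66 C57BL/6 mice. Mice fed ad libitum (AL) on regular feed were taken at 17-21 days (n = 5), 33-44 days (n = 5), 6 months (n = 10), 16 months (n = 10) and 24 months (n = 9). Mice on caloric restriction (CR) were taken at 6 months (n = 9), 16 months (n = 10) and 24 months (n = 8). Per the labels they had 100% regular feed to 13 weeks, then fortified feed at 90% for 1 week, at 75% for 1 week and at 60% until they were killed, and the methods of the study name a later week for the start. No young mouse was on CR, so diet could be compared in adults only. There were 35 females and 31 males, and every group held both sexes. The values are z scores: on each array the mean over all probes is 0 and the SD is 1, so a z score places a probe within its own array. Whether a logarithm preceded this step is not stated, so differences are given in z and no fold change can be had, and the levels of 2 probes cannot be set against each other. The signal is from whole tissue, in which fewer cells of a type and less RNA per cell cannot be told apart.

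Facts of the arrays bear on these probes. The labels number the arrays from 1 to 67, and arrays 1 to 24 differed from arrays 25 to 67 across the filter. This set was therefore a block in the main fit. On 7 arrays the profile correlated with those of the same set at a median r under 0.9. They were 3 CR arrays of 16 months, 2 AL arrays of 6 months, 1 CR array of 6 months and 1 CR array of 24 months. The values also varied with the place of a spot on the filter. Of the 101 cell type markers in 8 lists only 13 were on the filter. Cbln1 of granule neurons lay at the percentile 92.6 of all probes by mean z and Aldoc, an enzyme of Purkinje cells and astrocytes, at 92.8. Pecam1 of endothelium lay as high, at 92.7, while Glul of astrocytes was at 38.0 and Hba-a2 of blood at 43.4. Of the 2 measured markers of microglia and macrophages, Lyz2 was at 85.4 and Laptm5 at 8.7. These percentiles thus do not mark out the cell types of the cerebellum, and no oligodendrocyte marker was measured.

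The start regions of both genes are shown because they are the sequences through which shared control of lysosomal genes would be looked for. They are the RefSeq windows on GRCm38.p6, 250 bases before to 50 after a start site, written 5′ to 3′ on the strand of the gene. Ppt1 is on the plus strand at chr4:122835977-122836276, within which the gene model (chr4:122836077-122859175) begins at base 101. Ctsz is on the minus strand at chr2:174438990-174439289, and its gene model (chr2:174427494-174439039) begins at base 251. Capitals mark, in Ppt1, the 8 bases nearest to TCACGTGA, the centre of the CLEAR element, and, in Ctsz, the GC boxes (GGGCGG or its complement CCGCCC).
Ppt1: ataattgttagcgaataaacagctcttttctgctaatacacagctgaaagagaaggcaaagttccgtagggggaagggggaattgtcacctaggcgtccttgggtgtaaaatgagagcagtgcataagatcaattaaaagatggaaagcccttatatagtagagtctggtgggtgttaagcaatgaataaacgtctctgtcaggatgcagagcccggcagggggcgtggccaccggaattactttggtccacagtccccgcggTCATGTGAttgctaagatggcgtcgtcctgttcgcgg
Ctsz: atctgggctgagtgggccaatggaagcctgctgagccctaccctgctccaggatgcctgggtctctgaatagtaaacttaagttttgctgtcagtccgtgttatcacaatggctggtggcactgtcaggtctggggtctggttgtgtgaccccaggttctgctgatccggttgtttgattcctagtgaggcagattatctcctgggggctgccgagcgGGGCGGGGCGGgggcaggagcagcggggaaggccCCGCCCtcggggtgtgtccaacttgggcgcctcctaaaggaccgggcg
Neither window held CACGTG, the core of the CLEAR element, which was in 7.15% of all 32851 windows, in 37.5% of the 16 windows of lysosomal proteases, the list of Ctsz, and in 16.33% of the 49 windows of other lysosomal hydrolases, the list of Ppt1. The nearest run in Ppt1 was TCATGTGA at bases 264 to 271 of the window, which differed from TCACGTGA by C4T (position from the 5′ end of the searched motif, its base first). A run with at most 1 mismatch, searched on both strands since the motif is a palindrome, was found in 8.63% of all windows, in 43.75% of those of lysosomal proteases and in 30.61% of those of the other hydrolases. Ctsz held no run with fewer than 3 mismatches, whereas 59.01% of all windows held one with at most 2. Ctsz held 3 GC boxes, of which the first 2 share a base, and Ppt1 held none, against 35.66% of all windows with at least 1. These are matches of letters only. The cDNA sequences of the 3 probes were not used here, so which part of each transcript a probe reads is not given.

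Ppt1 probe 4300 had a mean z of 0.694 over the 66 arrays and lay at the percentile 78.4 of all probes. In AL mice its z scores at 17-21 days were 0.78 and 0.83 on arrays 1 to 24 and 1.01, 0.67 and 0.83 on arrays 25 to 67. At 33-44 days they were 0.57 and 0.83, and 0.74, 0.80 and 0.32. The 5 younger mice thus ranged from 0.67 to 1.01 and the 5 older from 0.32 to 0.83, and the groups overlapped. At 6 months the lowest, median and highest values were -0.46, 0.72 and 1.04, at 16 months 0.43, 0.79 and 0.93, and at 24 months 0.45, 0.73 and 1.06. In CR mice they were 0.06, 0.67 and 0.91 at 6 months, -0.57, 0.74 and 0.93 at 16 months, and 0.05, 0.88 and 1.02 at 24 months. The medians of all 8 groups lay between 0.67 and 0.88, while single arrays reached below 0. All groups overlapped with all others.

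The low values of this probe came mostly from arrays that stand apart. The 5 lowest were -0.57 (CR male, 16 months), -0.46 and -0.02 (AL females, 6 months), 0.05 (CR female, 24 months) and 0.06 (CR female, 6 months), and 4 of them, all but the -0.02, were among the 7 such arrays. The SD of the probe was 0.491 over those 7 arrays and 0.195 over the other 59.

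Ppt1 probe 7842 had a mean z of -0.29, at the percentile 39.5. At 17-21 days its z scores were -0.26 and 0.05 on arrays 1 to 24 and -0.13, -0.11 and -0.19 on arrays 25 to 67. At 33-44 days they were -0.58 and -0.07, and -0.81, -0.68 and -0.71. Of the 5 mice of 33-44 days 4 lay below all mice of 17-21 days, and that at -0.07 lay among them. In adults fed AL the lowest, median and highest values were -0.50, -0.18 and 0.10 at 6 months, -0.57, -0.38 and -0.14 at 16 months, and -0.68, -0.43 and -0.13 at 24 months. In CR mice they were -0.45, -0.13 and 0.06 at 6 months, -0.89, -0.14 and 0.19 at 16 months, and -0.67, -0.40 and -0.11 at 24 months. The medians of 24 months were thus the lowest of the adult groups in both diets, with ranges that overlapped those of 6 and 16 months. On arrays 1 to 24 this did not hold in CR mice. Their medians were -0.17 at 16 months (n = 4) and -0.12 at 24 months (n = 2).

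Ctsz probe 1193 was bright, with a mean z of 1.731 at the percentile 95.8. At 17-21 days its z scores were 1.65 and 1.61 on arrays 1 to 24 and 1.48, 1.56 and 1.60 on arrays 25 to 67. At 33-44 days they were 1.61 and 1.60, and 1.84, 2.11 and 2.16. All 5 mice of 17-21 days were thus between 1.48 and 1.65, and the 33-44 day mice split by array set, with 1.60 and 1.61 in the first and 1.84 or more in the second. In adults fed AL the lowest, median and highest values were 1.33, 1.72 and 2.05 at 6 months, 1.51, 1.79 and 2.13 at 16 months, and 1.63, 1.83 and 2.14 at 24 months. In CR mice they were 1.28, 1.62 and 1.83 at 6 months, 1.54, 1.68 and 2.02 at 16 months, and 1.49, 1.79 and 2.23 at 24 months. The adult medians were in the order of age in both diets, within ranges that overlapped. Within neither array set did this order hold. At 6, 16 and 24 months the AL medians were 1.47, 1.745 and 1.635 on arrays 1 to 24. On arrays 25 to 67 they were 1.85, 1.79 and 1.93. The CR medians were 1.48, 1.665 and 1.57 on the first set and 1.80, 1.70 and 1.85 on the second. Only 2 mice of 24 months per diet were on the first set, where the probe was lower (mean z 1.597 against 1.807). Group means with the array set taken out kept the order of age.

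**Figure D1:**
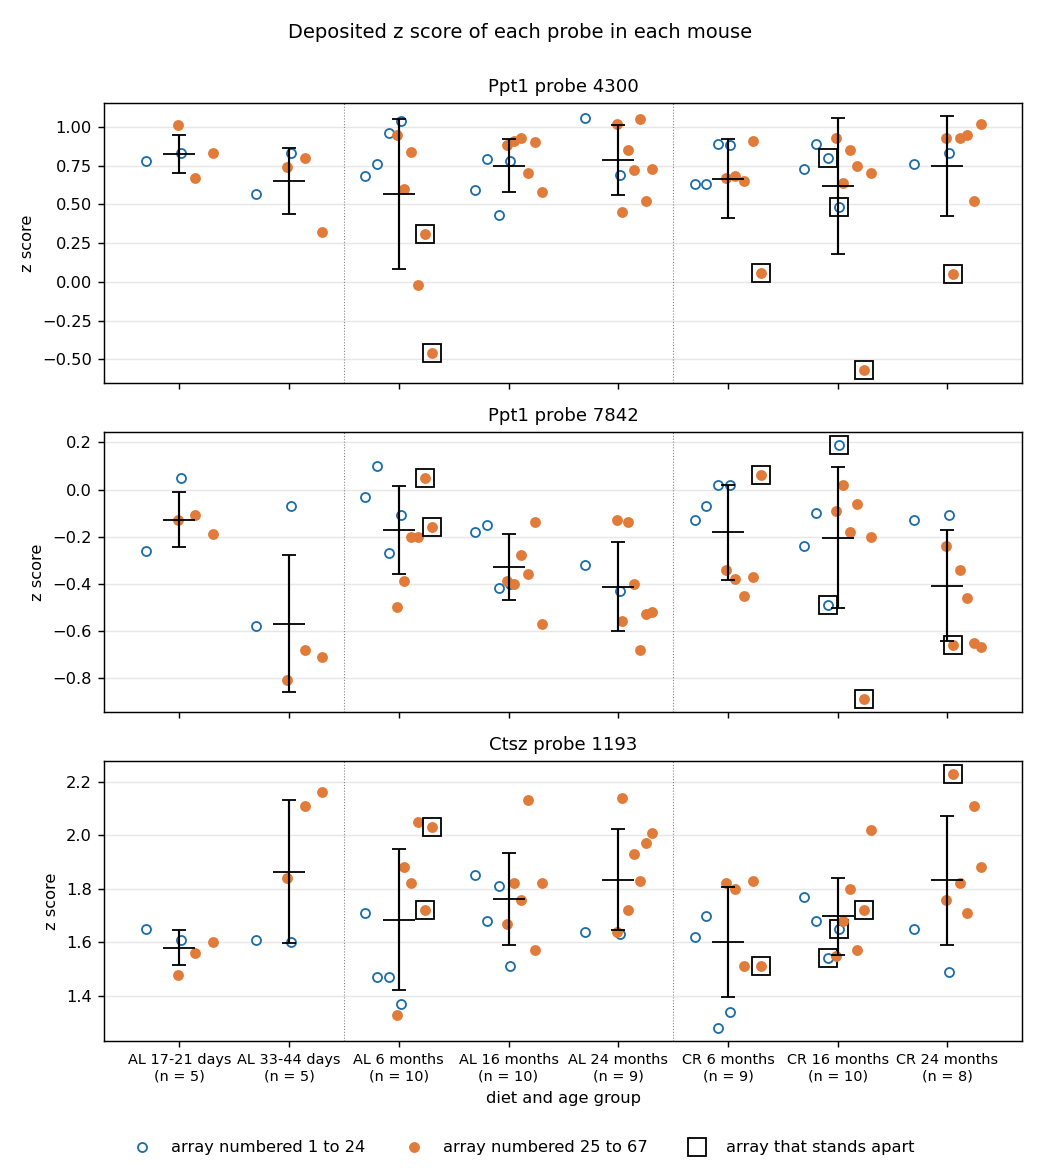
Deposited z score (y axis) of the 3 probes in each of the 8 groups of diet and age (x axis). A point is 1 mouse, open for arrays 1 to 24 and filled for arrays 25 to 67, squares mark the 7 arrays that stand apart, and black bars are the mean and SD of the group. The values of Ppt1 probe 4300 below 0.1 come from 5 arrays, and in the 33-44 day group the 2 sets of arrays separate for Ctsz.

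With the array set taken out, the group means of Ppt1 probe 4300 ran from 0.58 in AL mice of 6 months to 0.86 in AL mice of 17-21 days, with no step over 0.08 between neighbours in that order. Those of probe 7842 ran from -0.58 at 33-44 days to -0.11 at 17-21 days, and the largest step, 0.20, lay between the 33-44 day mice and the AL mice of 24 months. Those of Ctsz ran from 1.54 at 17-21 days to 1.85 at 33-44 days, with no step over 0.07. The pooled SD between mice of a group was 0.325, 0.207 and 0.207 z for probes 4300, 7842 and 1193. No neighbours in any of these orders differed by more than it, and the ranges of all neighbours overlapped.

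The widest age contrast of Ppt1 probe 7842 and of Ctsz was that between the young ages, whereas for Ppt1 probe 4300 it was that between 17-21 days and 6 months. At 33-44 days relative to 17-21 days, Ppt1 probe 7842 was lower, by a difference of -0.47 ± 0.13 z (SE, 5 and 5 mice, 95% interval -0.72 to -0.21), and Ctsz was higher, by 0.31 ± 0.12 z (0.07 to 0.56). Ppt1 probe 4300 differed by -0.21 ± 0.20 z (-0.61 to 0.20). Between 33-44 days and 6 months probe 7842 was higher again at 6 months, by 0.42 ± 0.11 z (0.20 to 0.64), Ctsz differed by -0.19 ± 0.10 z (-0.40 to 0.02) and probe 4300 by -0.07 ± 0.17 z (-0.42 to 0.28). At 6 months relative to 17-21 days the differences were -0.28 ± 0.17 z (-0.63 to 0.07), -0.05 ± 0.11 z (-0.27 to 0.17) and 0.12 ± 0.10 z (-0.08 to 0.33) for probes 4300, 7842 and 1193. That of probe 4300 was -0.44 z on arrays 25 to 67 and 0.07 z on arrays 1 to 24, and it was -0.18 z without 1 AL female of 6 months (replicate 5) and -0.12 z without the 7 arrays that stand apart. These comparisons share mice, so the difference before and that after 33-44 days are not separate observations.

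Both of the larger young differences were unlike on the 2 sets of arrays. On arrays 25 to 67 the plain difference in means between 33-44 and 17-21 days was -0.59 z for Ppt1 probe 7842 and 0.49 z for Ctsz, from 1 female and 2 males at 17-21 days and 2 females and 1 male at 33-44 days. On arrays 1 to 24 it was -0.22 and -0.03 z, from 2 females of 17-21 days and 2 males of 43 and 44 days. Age and sex cannot be told apart in these 4 mice, and the mice of 33-44 days on the later arrays were younger, 33 to 40 days, so the array set is mixed with sex and exact age. A sex difference fitted over the mice of the same set was then taken out. This left -0.60 and 0.47 z on arrays 25 to 67 and -0.11 z for both probes on arrays 1 to 24. On arrays 1 to 24 each young age held 1 sex, so the sex difference taken out there came from adults alone. It was -0.11 z for probe 7842 and 0.08 z for Ctsz. The sex difference of young mice over both sets had the other sign, at 0.13 ± 0.13 and -0.15 ± 0.12 z. Within arrays 25 to 67 the 3 and 3 mice did not overlap for 2 of the 3 probes, 7842 and 1193, but neither did they for 25.1% of all probes on the filter, or for 17% after the correction for place given below. Across the whole filter limma called 0 probes (0%) in this comparison at an adjusted p under 0.05, and 496 had an unadjusted p under 0.05. The study first selected by 3 criteria. They were a mean intensity of 2 conditions above 0, an absolute z ratio (difference over SD) above 1.5, and an unadjusted p under 0.05. The z ratio rule used here has the same thresholds but other quantities. It takes the mean z over all 66 arrays, the SD of the differences over all probes and the unadjusted p of limma. This rule was met by 190 probes (2.25%), which is not the study's own count. Since the 2 genes were chosen from age and diet results of these same arrays, nothing is read from whether their probes met it. In the same comparison 4 of the 6 measured markers of immature granule neurons were higher and 2 lower, with 0 called, and the sum of their z scores ranged from 0.66 to 1.73 at 17-21 days and from 0.92 to 2.37 at 33-44 days. Their part in the Ppt1 and Ctsz values was not tested.

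Between 6 and 24 months Ppt1 probe 7842 was lower at 24 months in AL mice, with a difference of -0.22 ± 0.09 z (-0.40 to -0.03), and the difference in CR mice was -0.17 ± 0.10 z (-0.37 to 0.03). Probe 4300 of the same gene went the other way, with 0.23 ± 0.15 z (-0.06 to 0.53) in AL and 0.12 ± 0.16 z (-0.19 to 0.43) in CR. Ctsz was at 0.12 ± 0.09 z (-0.05 to 0.30) in AL and 0.17 ± 0.09 z (-0.02 to 0.35) in CR. The AL difference of probe 4300 was 0.13 z without 1 AL female of 6 months, and 0.06 z without the 7 arrays that stand apart. In the steps from 6 to 16 and from 16 to 24 months no difference of the 3 probes had an interval that left out 0, in either diet. By its own criteria the study lists cathepsin Z among cerebellar genes that changed with age both there and in earlier mouse data. limma called 0 probes at 24 relative to 6 months in AL mice and 0 in CR mice, where 1408 and 507 probes had an unadjusted p under 0.05 and the z ratio rule was met by 521 and 186 probes.

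With all arrays, no diet difference of the 3 probes exceeded 0.13 z in either direction, which is below the SD between mice. Averaged over the 3 adult ages, CR minus AL was -0.01 ± 0.08 z (-0.18 to 0.16) for Ppt1 probe 4300, 0.04 ± 0.05 z (-0.06 to 0.15) for probe 7842 and -0.05 ± 0.05 z (-0.16 to 0.05) for Ctsz. Ctsz was lower in CR at each age, with -0.07 ± 0.09, -0.06 ± 0.08 and -0.03 ± 0.09 z at 6, 16 and 24 months, and all 3 intervals included 0. For probe 7842 the differences were -0.02 ± 0.09, 0.13 ± 0.09 and 0.03 ± 0.10 z, and for probe 4300 they were 0.11 ± 0.14, -0.13 ± 0.14 and -0.01 ± 0.16 z. Without 1 CR male of 16 months, whose array stands apart, the value of probe 4300 at 16 months was 0.01 z and that of probe 7842, which was lowest in the same mouse, was 0.18 z. Without all 7 arrays that stand apart probe 7842 was at 0.22 z at 16 months, above its SD of 0.207 z between mice, and at 0.12 z after the correction for place given below. At 24 months it was at 0.255 z on arrays 1 to 24 and at -0.08 z on arrays 25 to 67. The change from 6 to 24 months differed between the diets by -0.11 ± 0.21, 0.05 ± 0.13 and 0.04 ± 0.13 z for probes 4300, 7842 and 1193. limma called 0 probes for diet over the 3 ages, with 179 at an unadjusted p under 0.05 and 34 by the z ratio rule.

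No probe of these genes passed the test between the sexes. In the 26 adult males and 30 adult females the median z was 0.82 and 0.71 for Ppt1 probe 4300, -0.28 and -0.20 for probe 7842, and 1.72 and 1.71 for Ctsz. Male minus female was 0.07 ± 0.09 z (-0.10 to 0.24), -0.04 ± 0.05 z (-0.15 to 0.07) and -0.03 ± 0.05 z (-0.13 to 0.07), each with an adjusted p of 0.9996 in limma, and the adjusted p stayed between 0.966 and 1 under all alternatives run. The mean of males was the higher in 3, 2 and 2 of the 6 adult groups. In young mice the differences were 0.18 ± 0.20, 0.13 ± 0.13 and -0.15 ± 0.12 z, with an adjusted p of 0.9999 each. Over the filter 0 probes were called for sex in adults, with 89 at an unadjusted p under 0.05 and 10 by the z ratio rule.

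The place of the spots on the filter moved with all 3 probes. The order of the table was read as a grid of 16 by 24 zones with 22 slots each, a layout inferred from the values. In it Ppt1 4300 lies in zone row 9 and column 4, and Ppt1 7842 in row 15 and column 21. Ctsz 1193 lies in row 3 and column 7. Neighbours were taken here as the spots that share the slot number of the probe in the surrounding zones, up to 2 each way. The zone of the probe was left out whole, so the spots next to it in that zone were not used. For each array the median deviation of these neighbours was set beside the deviation of the probe. On arrays 25 to 67 they correlated with r of 0.932 for Ppt1 4300, 0.837 for Ppt1 7842 and 0.857 for Ctsz (n = 42 arrays), and on arrays 1 to 24 with 0.867, 0.518 and 0.509 (n = 24). The median over all probes was 0.764 and 0.63. Ppt1 4300 thus lay high among all probes, at the percentiles 90.9 and 88.2, while Ppt1 7842 was at 66.1 and 35.0 and Ctsz at 71.5 and 33.9. The points share arrays, and these r are a description.

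**Figure D2:**
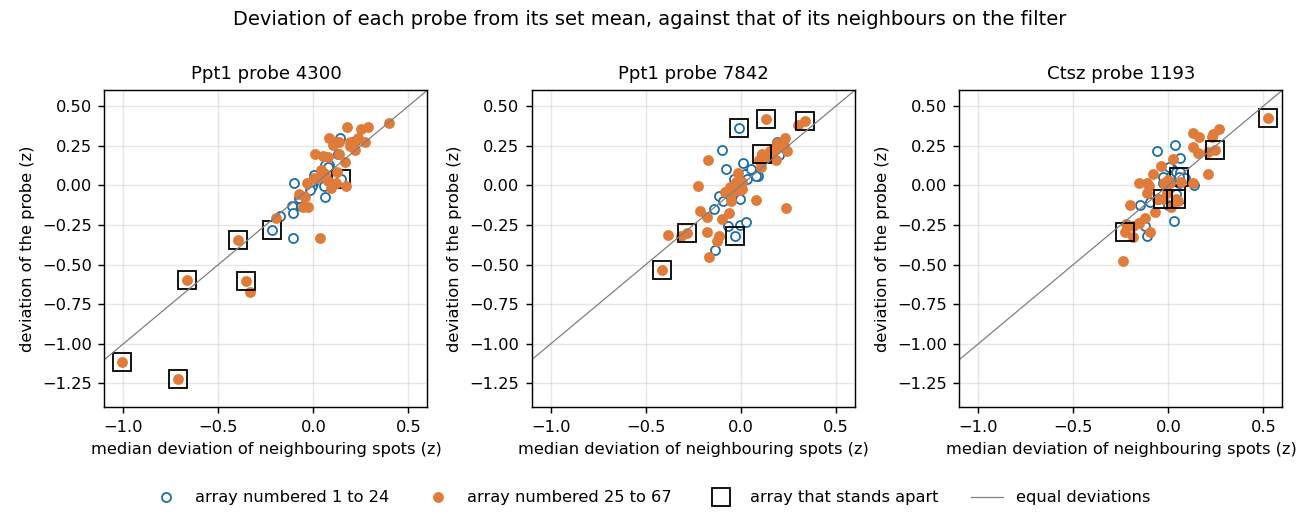
Deviation of each probe from its mean over the array set (y axis, z) against the median deviation of its neighbours on the filter (x axis, z), 1 point per array, with the line of equal deviations. The lowest values of Ppt1 probe 4300 lie on arrays where this median was low as well. It was -0.71 and -1.01 z on the lowest 2 arrays.

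Subtracting the neighbours' median from each value narrowed the SD over the 66 arrays from 0.315 to 0.14 for Ppt1 4300, from 0.241 to 0.171 for Ppt1 7842 and from 0.214 to 0.152 for Ctsz. Within the sets it removed 83.7% and 71.7% of the variance of Ppt1 4300 (arrays 25 to 67 and 1 to 24), against a median over all probes of 56.0% and 35.9%. The AL mice of 17-21 days on arrays 25 to 67 had neighbours at 0.18, 0.23 and 0.18 z around Ppt1 7842 and at -0.19, -0.23 and -0.12 z around Ctsz. Those of 33-44 days on the same arrays had neighbours at -0.17, -0.31 and -0.13 z and at 0.00, 0.23 and 0.26 z. The neighbours thus differed between the young ages in the direction of the probe for both genes. After the subtraction the difference between 33-44 and 17-21 days was -0.22 ± 0.09 z (-0.40 to -0.04) for probe 7842, 0.09 ± 0.08 z (-0.07 to 0.25) for Ctsz and -0.15 ± 0.09 z (-0.32 to 0.02) for probe 4300. The differences of both Ppt1 probes were below 0 before and after the subtraction.

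**Figure D3:**
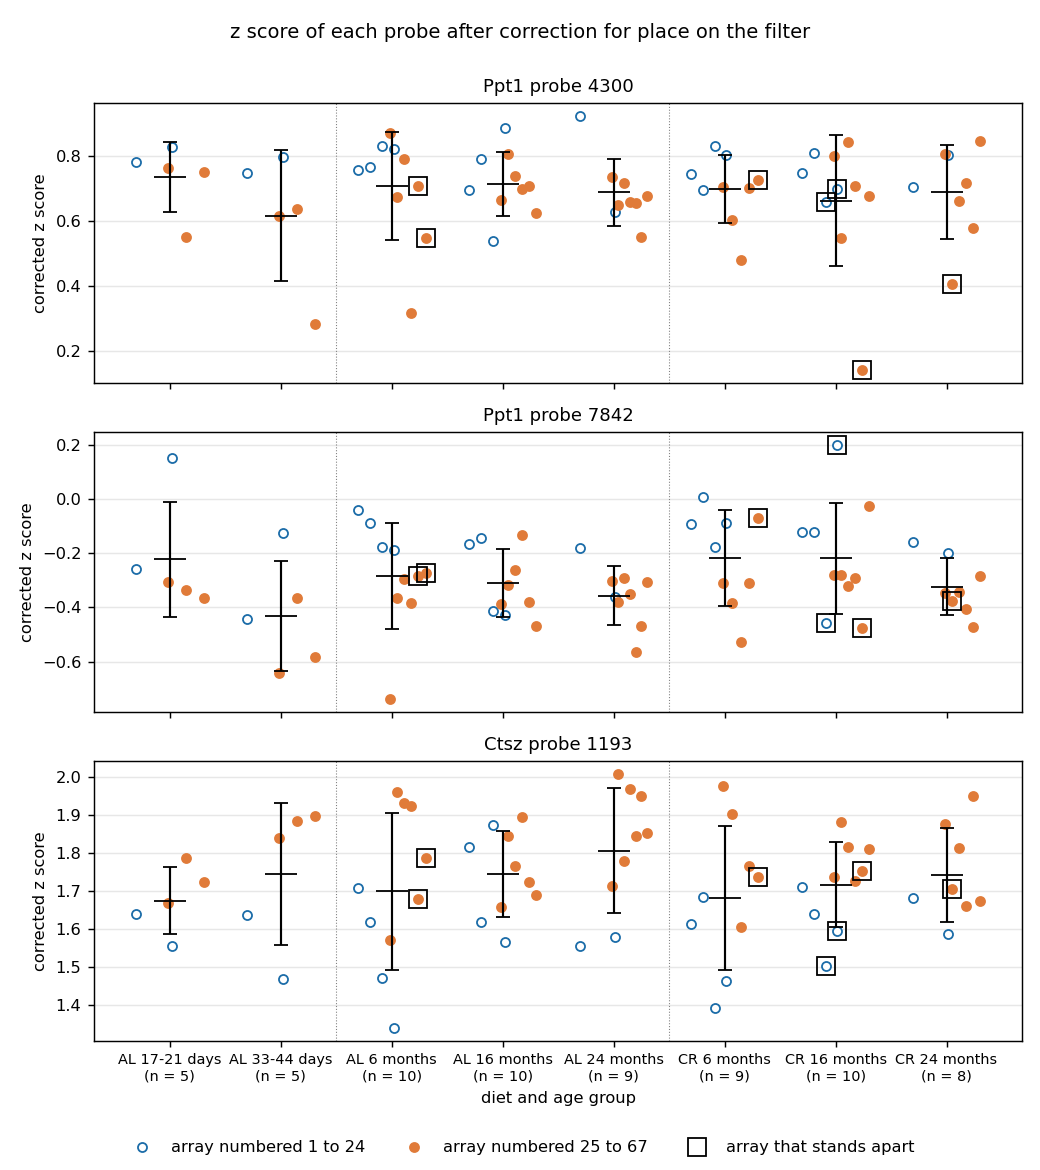
The z scores after subtraction of the neighbours' median (y axis) in the 8 groups of diet and age (x axis), with the symbols of the plot of deposited values. The group means of Ppt1 probe 4300 lie between 0.616 and 0.734 and those of Ctsz between 1.674 and 1.805.

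The adult differences also became smaller with the subtraction. At 24 relative to 6 months in AL mice, Ppt1 4300 was at 0.00 ± 0.06 z (-0.12 to 0.12), Ppt1 7842 at -0.04 ± 0.06 z (-0.17 to 0.09) and Ctsz at 0.08 ± 0.06 z (-0.04 to 0.19). In CR mice they were at 0.02 ± 0.07, -0.07 ± 0.07 and 0.02 ± 0.06 z. CR minus AL over the adult ages was -0.02 ± 0.04, 0.06 ± 0.04 and -0.03 ± 0.03 z. After the subtraction limma called 0 probes in each of the 17 comparisons.

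**Figure D4:**
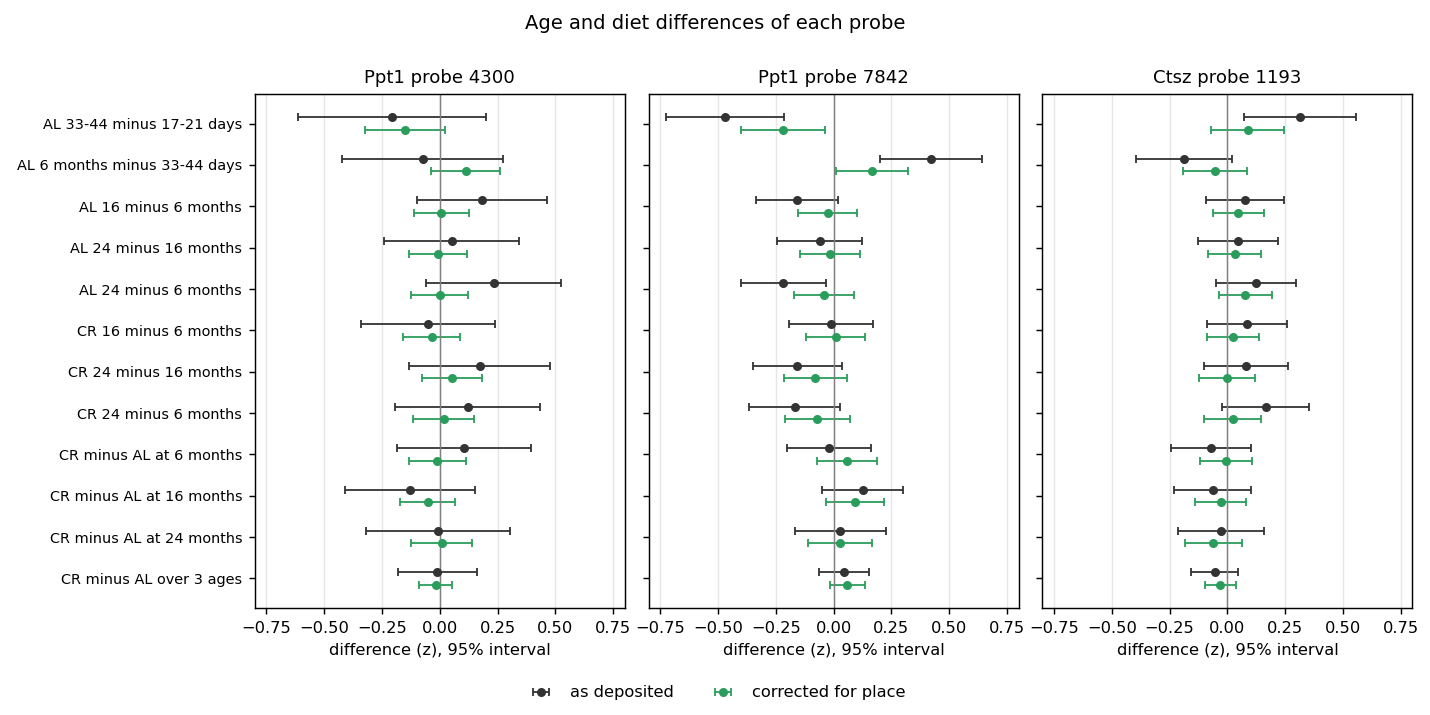
Differences in z (x axis) between ages and diets for the 3 probes, with 95% intervals, from the deposited values (dark) and after the subtraction of the neighbours' median (green). The differences of Ppt1 probe 7842 around 33-44 days, -0.47 and 0.42 z, shrink to -0.22 and 0.17 z, and the other green points lie within 0.15 z of 0.

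The 2 Ppt1 probes read 1 gene and yet varied almost apart from each other. Over arrays they correlated with r of 0.12 on arrays 25 to 67 and 0.097 on arrays 1 to 24, and with 0.291 and 0.201 after the subtraction. Over the 584 genes with 2 probes of a single symbol, the median r on arrays 25 to 67 was 0.02, and 0.003 after the subtraction. Both values of the Ppt1 pair on those arrays were above these medians, and the spread over the 584 genes was not taken. Ctsz was negatively correlated with probe 4300 on both sets (-0.331 and -0.599) and with probe 7842 (-0.47 and -0.23). After the subtraction the values were -0.179 and -0.573 for probe 4300 and 0.088 and -0.047 for probe 7842, so the negative correlation with probe 4300 on arrays 1 to 24 was nearly as large as before.

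Of the 9 genes with the most similar pattern over the 16 group means, 3 for each probe, 6 lay within 2 zones of the probe on the filter. For Ppt1 4300 they were Ccnb1ip1 (r = 0.978), Cpa1 (0.965) and Ctnna1 (0.962), and the Cpa1 probe lies in the same zone. For Ppt1 7842 they were Xpot (0.977), Fndc3b (0.927) and Nab1 (0.921), and Xpot is the next spot. For Ctsz they were Cap1 (0.971), Rpl36a (0.955) and Rnf41 (0.950), and Cap1 is again an adjoining spot. With the neighbours' median subtracted, the highest values were 0.891 for Arih2 with Ppt1 4300, 0.813 for 1700109G14Rik with Ppt1 7842 and 0.892 for Hsp90aa1 with Ctsz, and Arih2 is the spot next to that of Ppt1. Of those 9 genes 2 lay within 2 zones.

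Of the other genes of the pathway, 61 of 203 in 7 lists were on the filter, Ppt1 and Ctsz included, and none was called in any comparison. Of the lysosomal proteases 8 of 19 were measured. At 24 relative to 6 months in AL mice 2 were higher and 6 lower (median -0.06 z, against -0.04 z over all genes), and in CR mice 4 and 4. After the subtraction of the neighbours' median the counts were 4 and 4 (median 0.02 z) in AL mice and 5 and 3 in CR mice. Tpp1, the protease lost in the late infantile form of neuronal ceroid lipofuscinosis, was at -0.28 ± 0.09 z in AL mice (adjusted p = 0.170 in limma) and at -0.21 ± 0.10 z in CR mice (adjusted p = 0.809). Ctsc, the dipeptidyl peptidase that activates serine proteases, was at 0.40 ± 0.14 z in AL mice (adjusted p = 0.184). With the neighbours' median subtracted these AL values were -0.08 z for Tpp1 and 0.09 z for Ctsc.

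Among the other lysosomal hydrolases, 15 of 52 measured, 3 were higher and 12 lower at 24 relative to 6 months in AL mice (median -0.09 z), and 7 and 8 after the subtraction (median -0.02 z). The CR counts were 4 and 11, and 5 and 10 after it. Among membrane proteins and proton pump subunits (14 of 44) 7 were higher and 7 lower in AL mice. Atp6v1b2, of the proton pump that makes the lysosome acid, was at 0.32 ± 0.10 z and its accessory subunit Atp6ap1 at -0.24 ± 0.08 z (adjusted p = 0.164 and 0.170 in limma), and after the subtraction they were at 0.07 and -0.04 z. Of the genes of targeting and regulation (16 of 42) 6 were higher and 10 lower in AL mice, M6pr, a receptor that carries lysosomal enzymes from the Golgi, at -0.26 ± 0.10 z (adjusted p = 0.204 in limma) and at -0.14 z after the subtraction.

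The lists closest to Ppt1 were thinly covered. Of the genes of neuronal ceroid lipofuscinosis 3 of 13 were measured, Ppt1, Tpp1 and Dnajc5, the last a palmitoylated chaperone of synaptic vesicles. In CR mice Tpp1, Dnajc5 and Ppt1 probe 7842 were lower at 24 than at 6 months, whereas Ppt1 probe 4300 was at 0.12 ± 0.16 z. For Dnajc5 the difference was -0.19 ± 0.08 z (adjusted p = 0.807 in limma), and -0.12 z after the subtraction. In AL mice Dnajc5 was at 0.05 ± 0.07 z and at 0.10 z after it. Of the genes that add or remove palmitate 7 of 31 were measured, 4 higher and 3 lower in AL mice. Zdhhc5, a palmitoyl transferase, was at 0.42 ± 0.13 z (adjusted p = 0.164 in limma) and at 0.01 z after the subtraction. Of the inhibitors of cysteine proteases, which act on cathepsins, 2 of 13 were measured, and Cstb and Cst3 were at -0.20 ± 0.12 and -0.02 ± 0.10 z (adjusted p = 0.388 and 0.958 in limma), and at -0.10 and 0.04 z after the subtraction.

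For diet over the 3 ages, 3 of the 8 proteases were higher and 5 lower in CR and 8 and 7 of the 15 hydrolases, with medians of -0.05 and 0.01 z against 0.00 z over all genes. After the subtraction the counts were 5 and 3, and 9 and 6. Between 17-21 and 33-44 days 3 proteases were higher and 5 lower (median -0.01 z, against 0.01 z over all genes), and 5 and 3 after the subtraction. The relatives of Ctsz with the smallest p, the cathepsins Ctsl and Ctsb, were at 0.13 ± 0.20 z and 0.14 ± 0.23 z (adjusted p = 0.974 and 0.977 in limma). After the subtraction both were at 0.15 z. Of the 2 Ctsl probes only that with the smaller p is given, and the other did not share its direction. Only Lyz2 and Laptm5 of 21 markers of microglia and macrophages were measured. The sum of their z scores had medians between -0.37 and -0.05 over the 8 groups, with ranges that overlapped, and their part in the Ctsz values was not tested.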

How the data were processed

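The study hybridised total RNA of the cerebellum, radiolabelled with 33P per the labels (the methods text names another phosphorus isotope), to nylon filters of cDNA spots and exposed these to imaging screens. Each deposited value is a z score that the authors computed within an array from its spot intensities. No value was missing, and no array or probe was left out. Precision is set by the number of mice, since filters give no count. Symbols came from the platform annotation, and 4780 of 4788 single-symbol probes matched RefSeq by Entrez number, with 0 symbols changed. Members and gene lists were chosen with earlier results of these data known.

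Groups of diet, sex and age (16, with 2 to 5 mice) were fitted to all 8448 probes with limma 3.58.1 in R 4.3.3, with the array set as a block and equal weight for the sexes (49 residual degrees of freedom). p values were adjusted by Benjamini and Hochberg over all probes, with 0.05 as the threshold, over 17 comparisons. Fits were tested on simulated data. Spot positions were inferred from probe order, since values correlate at fixed lags along it. In each list the genes with the smallest p, at most 4 a comparison, could be named, and the 3 genes of most similar pattern. Python 3.11.15, pandas 2.3.3, numpy 2.4.6 and matplotlib 3.10.9 were used. Alternatives were no block, 1 array set alone, rescaling, quantile normalization, correction for place, omission of arrays that stand apart or of 1 mouse, no sex term, a mean z above 0 and the z ratio rule. Correction for place without the arrays that stand apart and a block for the cycle of array numbers were added after seeing the data. Replicate mice are numbered here in the order of the deposit.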

Additional observations from a re-analysis of the deposited data

Results flagged for a closer look

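Of 33 sets of 4 or 5 mice of one diet, sex and age, taken for the 3 probes, 2 held a value that stood far from the rest, where chance gives about 1 in 20. Ppt1 probe 4300 was at -0.57 z in CR male 16 months replicate 5, and the other 4 males of that group were between 0.73 and 0.93. This array stands apart from its set, and with the neighbours' median subtracted the value was 0.14 z against 0.66 to 0.84 z. Ctsz probe 1193 was at 2.02 z in CR female 16 months replicate 5, and the other 4 females were between 1.57 and 1.68. With the neighbours' median subtracted the value was 1.81 z, within the 1.595 to 1.88 z of the others.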

How the results depend on the processing

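Of 489 values of the 51 differences of the 3 probes under 10 alternatives, 476 counted as unchanged and 13 as moved. All 1266 values without 1 mouse counted as unchanged. An age or diet difference counted as unchanged if it moved by less than 1 SD between mice. A sex difference did so if the outcome of its test stayed the same. On arrays 1 to 24 alone Ppt1 probe 4300 was at 0.067 z for 6 months minus 17-21 days and at -0.21 z for 16 minus 6 months in AL mice. There Ppt1 probe 7842 was at -0.11 z for 33-44 minus 17-21 days, 0.19 z for 6 months minus 33-44 days and 0.255 z for CR minus AL at 24 months, and Ctsz at -0.11 z for 33-44 minus 17-21 days and -0.17 z for 6 months minus 17-21 days. Corrected for place, probe 7842 was at -0.22 z for 33-44 minus 17-21 days (also without the arrays that stand apart) and at 0.17 z for 6 months minus 33-44 days (0.15 z without those arrays), and Ctsz at 0.0871 z in the former (also without those arrays). The sign turned in 12 of 51 differences with correction for place, in 18 with that and without the arrays that stand apart, in 9 without those arrays only, in 3 with quantile normalization, in 2 with rescaling, in 16 of 45 on arrays 1 to 24, in 7 of 45 on arrays 25 to 67 and in 1 of 42 without a sex term. Correction for place turned 38 of 51 or made them smaller by more than 1.5-fold. The causes were not tested.

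The count of probes called, 0 in all 17 comparisons, was above 0 in 21 of 197 other values. Without the arrays that stand apart, with and without correction for place, it was 1 for 33-44 minus 17-21 days, and for CR 24 minus 16 months it was 1 on arrays 25 to 67 and 3 without a sex term. With 1 mouse left out it ranged from 0 to 3 for 33-44 minus 17-21 days (3 without AL female 33-44 days replicate 1), 0 to 1 for 6 months minus 17-21 days, 0 to 7 for 6 months minus 33-44 days, 0 to 36 for CR 24 minus 16 months (36 without CR female 24 months replicate 4), 0 to 1 for CR 24 minus 6 months and 0 to 1 for sex in young mice. The z ratio rule gave 190, 119, 247, 354, 33 and 521 probes for the AL comparisons of 33-44 with 17-21 days, 6 months with 17-21 days, 6 months with 33-44 days, 16 with 6, 24 with 16 and 24 with 6 months, and 160, 239 and 186 for the CR comparisons of 16 with 6, 24 with 16 and 24 with 6 months. It gave 16, 146, 32 and 34 for diet at 6, 16 and 24 months and over them, 4 for diet by age, 10 and 6 for sex in adults and young mice, and 134 for sex by diet. The array numbers run in 5 cycles that hold about one mouse of each group (1 to 14, 15 to 28, 29 to 41, 42 to 55 and 56 to 67), and arrays 1 to 24 end within the second. The labels do not say that a cycle was a batch. With the cycle as the replicate block in place of the array set, chosen after seeing the data, 0 probes were called in all 17 comparisons, 1 of 51 differences turned its sign, and no difference moved by more than 0.151 z. That largest shift was of Ppt1 probe 4300 between 33-44 and 17-21 days, from -0.21 to -0.06 z, and there Ppt1 probe 7842 was at -0.45 z and Ctsz at 0.27 z.

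The number of mice limits what can be seen. The 95% interval of an adult age difference spanned 0.168 to 0.187 z to either side for Ctsz, 0.177 to 0.197 z for Ppt1 probe 7842 and 0.281 to 0.314 z for probe 4300, so smaller differences could not be told from 0. Corrected for place it spanned 0.11 to 0.14 z for the 3 probes.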
